A study of Homo sapiens with 12 samples.

Results

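The nuclear-encoded respiratory chain genes are the genes of the cell nucleus for subunits of complexes I to V of oxidative phosphorylation and for cytochrome c. They were chosen by gene symbol, in a rule that uses no measured value but was written with earlier results of these data known: the NDUFA, NDUFB, NDUFC, NDUFS and NDUFV series, SDHA to SDHD, the UQCR genes, CYC1, CYCS, the COX4 to COX8 genes and all symbols starting with ATP5. Of 89 matching symbols the pseudogene ATP5EP2 was left out, which gave 88 of the 26485 gene symbols in the table. Of the 88, 83 encode a subunit of a complex or cytochrome c, and 5 (COX7A2L, ATP5S, ATP5SL, ATP5L2 and ATP5J2-PTCD1) carry a related name. Older symbols are used in the deposited data for 19 of them, such as ATP5A1 for ATP5F1A, and are kept here. A filter on low counts kept 82 of the 88 for testing.

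RNA was measured in RD cells, an established human line of fusion-negative rhabdomyosarcoma, a tumour with features of developing skeletal muscle. Every group carried an inducible hairpin against NT5E, the gene of CD73, which makes adenosine from extracellular AMP. The 4 groups of 3 libraries were construct ish grown for 96 h with 10 ng/mL doxycycline (Dox), ish without Dox, construct ish2 with the same dose, and ish2 without Dox. The untreated cells, which carry the same constructs, are the control, and no library with a non-targeting hairpin was analysed here. Within a construct, treated and untreated cells differ in both Dox and hairpin induction, so effects of the drug and of the hairpin cannot be told apart. The sources used here do not give whether the cells of a construct were 1 clone or a pool. Nothing states that replicates were separate cultures, so p-values measure the spread between these libraries, which may be technical.

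The respiratory chain passes electrons from NADH (complex I) and succinate (complex II) through coenzyme Q to complex III, then by cytochrome c to complex IV, where oxygen is reduced. Complexes I, III and IV pump protons, and complex V, the ATP synthase, uses the proton gradient to make ATP. Most subunits are encoded in the nucleus and imported into mitochondria, while a few core subunits are encoded by mitochondrial DNA and were not analysed here. Muscle relies heavily on this pathway and uses its own isoforms of some complex IV subunits. The transcription factors NRF1 and GABP (an ETS-family factor) are known to bind in many of these promoters.

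In 69 of the 88 genes a RefSeq promoter window (GRCh38.p14, 250 bases before to 50 after the start) was found and searched on both strands for the NRF1 motif CATGCGC and the ETS core CCGGAAG. The NRF1 motif was in 15 of the 69 windows (21.7%), against 1556 of all 35116 windows (4.43%). It is a half-site, and 4 of the 69 windows held the joined palindrome. The 35116 windows were not limited to genes tested here. The ETS core was in 19 windows (27.5%) against 3603 of all (10.3%), and 6 windows held both (8.70% against 0.809%). Stretches of 60 bases upstream of 5 genes are printed 5′ to 3′ on the gene's strand, with matches in capitals, because NDUFB4, SDHB, SDHD and CYCS all hold the NRF1 motif and did not move in 1 direction below; UQCR11 is shown for the ETS core. In NDUFB4 and SDHD the motif matched both strands over shared bases, and UQCR11 held the ETS core once on each strand.
NDUFB4, chr3:120596152-120596211, plus strand: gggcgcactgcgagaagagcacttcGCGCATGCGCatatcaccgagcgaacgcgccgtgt
UQCR11, chr19:1605545-1605604, minus strand: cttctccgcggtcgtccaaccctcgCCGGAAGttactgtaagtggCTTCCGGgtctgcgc
SDHB, chr1:17054197-17054256, minus strand: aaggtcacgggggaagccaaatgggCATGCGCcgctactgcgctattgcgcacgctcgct
SDHD, chr11:112086713-112086772, plus strand: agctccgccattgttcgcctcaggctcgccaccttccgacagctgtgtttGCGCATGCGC
CYCS, chr7:25125394-25125453, minus strand: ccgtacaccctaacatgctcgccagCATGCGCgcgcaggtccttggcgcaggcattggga
A match describes letters in a window and shows no binding.

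NT5E, the targeted gene, fell with Dox in both constructs. Its level in CPM (reads per library size adjusted by the trimmed mean of M-values, TMM) was 14.9, 17.96 and 17.3 in the 3 ish libraries without Dox and 1.94, 1.23 and 1.54 with it. In ish2 it was 24.1, 23.5 and 22.1 without Dox and 14.5, 15.2 and 14.1 with it. The groups did not overlap in either construct, and the fall was 10.7-fold in ish and 1.59-fold in ish2 (log2 difference between the effects 2.74, SE 0.13, adjusted p = 2.91e-19, edgeR quasi-likelihood test). Gene counts per library ran from 26566603 to 32692207, and the biological coefficient of variation was 2.44%, so small folds passed the test. Reads counted as ambiguous between genes were 2.59% to 2.65% of the total in ish without Dox, 2.08% to 2.10% in ish with Dox, 2.57% to 2.58% in ish2 without Dox and 2.34% to 2.38% in ish2 with Dox. Of 8 muscle lineage markers, 7 were tested, and their summed level was 1766 to 1841 CPM in ish without Dox, 2739 to 2909 with Dox, and 1924 to 2008 over the 6 ish2 libraries. In ish 5 of the 7 rose and 1 fell (39.1% and 39.5% of all tested genes), and in ish2 2 rose and 3 fell, near the shares of all tested genes (33.9% and 31.1%). MYOG, which drives muscle differentiation, averaged 106 CPM in ish without Dox and 654 with it, and 82.9 and 17.6 in ish2. It is 1 gene picked from the 7, and not all of them moved with it, as 1 fell in ish and 2 rose in ish2. MYF5 was at or near 0 in every group. The 5 epithelial markers summed to at most 61.2 CPM, nearly all KRT18, at 31.9 to 33.7 in ish without Dox, 6.79 to 8.67 in ish with Dox, 37.5 to 42.5 in ish2 without Dox and 60.2 to 61.2 in ish2 with Dox. The 4 endothelial and 5 leukocyte markers summed to at most 0.626 and 1.44 CPM. The part of muscle differentiation and of ambiguous reads in the results below was not tested. In bulk RNA, a change in the share of cells of a state and a change in RNA per cell cannot be told apart.

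With Dox in ish, respiratory chain genes were mostly higher. Of the 82 tested, 64 rose (78.0%, against 39.1% of all tested genes), 12 fell (14.6%, against 39.5%) and 6 did not pass the test (adjusted p under 0.05, edgeR with Benjamini-Hochberg adjustment over all 15206 tested genes); 78.6% of all tested genes were called either way. Their median log2 fold change was 0.38, against -0.0078 over all tested genes. The groups with and without Dox did not overlap for 79 of the 82, where 80.6% of all tested genes did not overlap. A change of at least 1.5-fold was called for 17 rises (14.9% of all tested genes) and 5 falls (19.9%). Rises were therefore frequent but mostly under 1.5-fold. With Dox in ish2 the picture differed: 17 rose (33.9% of all tested genes), 29 fell (31.1%), 46 in all against 65.0%, and 36 did not pass the test, with a median of -0.022 against 0.013. None rose and 2 fell by at least 1.5-fold in ish2 (8.77% and 7.65% of all tested genes), and the groups did not overlap for 45 genes (66.6% of all tested genes). Tested against a change of 1.2-fold, 49 genes rose and 5 fell in ish (24.8% and 27.2% of all tested genes), and 2 rose and 9 fell in ish2 (14.9% and 14.2%).

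The constructs were compared directly by testing the ish2 effect minus the ish effect. It was lower for 62 genes (35.2% of all tested genes), higher for 12 (37.4%), 74 in all against 72.6%, and not called for 8, with a median of -0.47 against 0.0094. Against 1.2-fold it was lower for 51 (24.4% of all tested genes) and higher for 7 (27.3%). Of the 82, 25 rose in ish and fell in ish2 (30.5%, against 1831 of all 15206 tested genes), and 3, CYCS, NDUFA7 and SDHD, fell in ish and rose in ish2 (14.1% of all tested genes). Another 13 rose in both (13.8% of all tested genes), and COX6B1, COX8A and ATP5B fell in both (14.1%). Many of these ish2 changes were small. Of the 46 genes called in ish2, 11 kept the call against 1.2-fold, where 4419 of all 15206 tested genes were called. CYCS, NDUFA7, SDHD, COX6B1, COX8A and ATP5B did not keep theirs in ish2. Across the 82 genes the log2 fold changes of the constructs had a Pearson correlation of -0.10 and a Spearman correlation of 0.0064, a description across genes that share libraries and are not independent. Over all 15206 tested genes the values were -0.10 and -0.013.

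**Figure D1:**
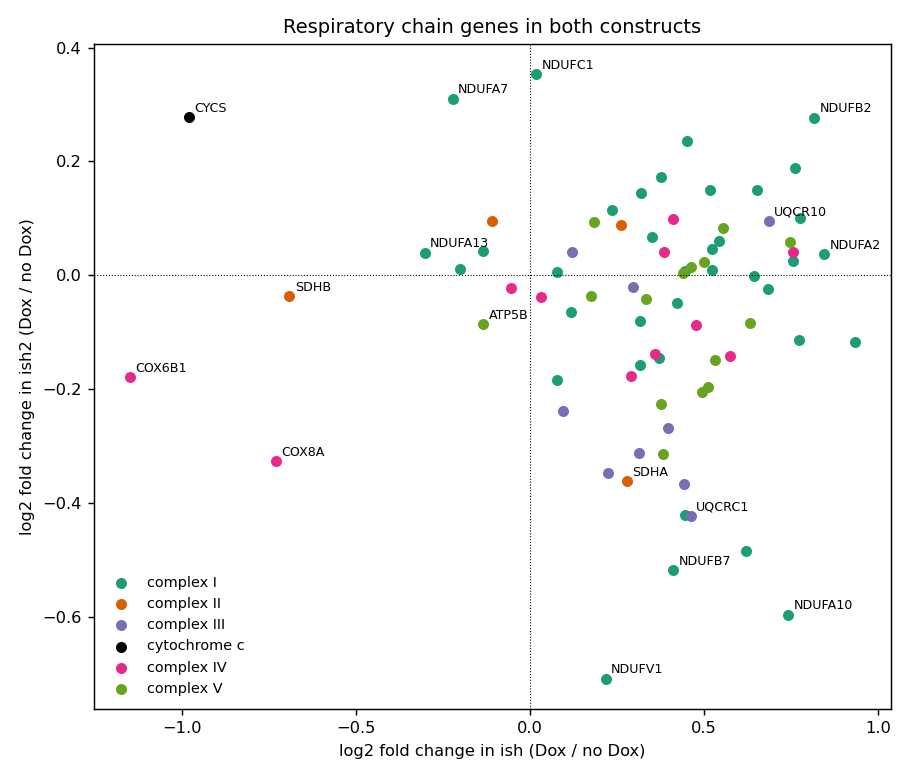
Each point is 1 respiratory chain gene, with its log2 fold change with Dox in ish on the horizontal axis and in ish2 on the vertical axis, coloured by complex. COX6A2, COX6B2 and the related genes are left out, and the points lie mostly right of zero and on both sides of the horizontal line, with CYCS farthest to the upper left.

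Summed levels showed the same split between constructs. The summed level of all 88 genes was 9932, 9803 and 9802 CPM in ish without Dox and 12184, 12193 and 12035 CPM with Dox, a rise of 23.3% with no overlap. In ish2 it was 9927, 10168 and 10399 CPM without Dox and 9808, 9735 and 9471 CPM with Dox, a fall of 4.85%, also with no overlap. These sums are dominated by abundant genes such as ATP5B, at 1010 ± 8.25 CPM (SD, n = 3) in ish without Dox.

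**Figure D2:**
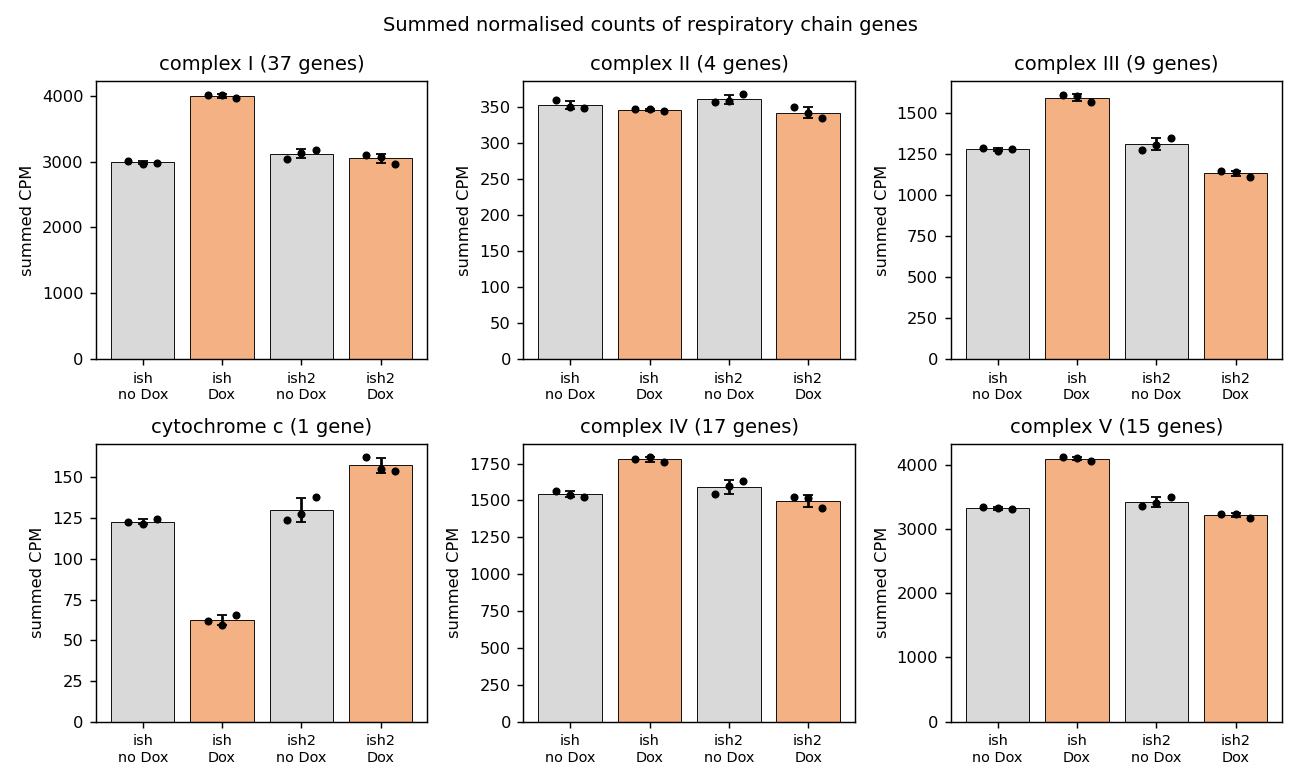
Summed CPM of the genes of each complex in the 12 libraries, with points for libraries, bars for group means and error bars of 1 SD (n = 3), on axes starting at 0. Complexes I, III, IV and V are higher with Dox in ish, complex II differs little, and cytochrome c falls in ish and rises in ish2.

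Counts for each complex are to be read against all tested genes. Of all tested genes, 39.1% rose and 39.5% fell in ish, 33.9% rose and 31.1% fell in ish2, and the effects differed for 72.6%. Complex I, the NADH dehydrogenase, was measured by all 37 of its listed genes. In ish 30 rose (81.1%), 4 fell (10.8%) and 3 (NDUFB1, NDUFB6 and NDUFC1) did not pass the test (median log2 fold change 0.45). Its summed level rose there by 33.8%, from 2989 ± 22.1 to 3999 ± 26.5 CPM (SD, n = 3). In ish2 10 rose and 10 fell (27.0% each, below the shares of all tested genes), and 17 did not pass (median 0.010). The sum changed there from 3123 ± 70.7 to 3052 ± 72.3 CPM, and the groups overlapped. The 7 core subunits, which carry the flavin and iron-sulfur centres, rose in 6 cases in ish, where NDUFS1 fell. Of the core genes 5 fell and none rose in ish2, where NDUFS1 and NDUFS8 did not pass. Of the 30 accessory genes 10 rose and 5 fell there, and in ish 24 of them rose and 3 fell.

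Among the accessory genes, NDUFA2 stood at 42, 41.2 and 41.3 CPM without Dox and at 78.4, 72.7 and 72.8 CPM with Dox in ish. In ish2 it stood at 36.5, 37.5 and 40.8 CPM without Dox and at 41, 39.6 and 37.3 CPM with Dox. The 3 treated ish libraries were clear of the other 9, with a log2 fold change of 0.85 (SE 0.040, adjusted p = 2.78e-20) in ish and 0.037 (adjusted p = 0.493) in ish2, where the groups overlapped. NDUFB2 rose in both constructs, by 0.82 in ish and 0.28 in ish2.

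NDUFV1 holds the flavin that accepts electrons from NADH (chr11:67605653-67612554, GRCh38). It stood at 104, 99.3 and 106 CPM in ish without Dox and at 114, 123 and 122 CPM with it. In ish2 it went from 102, 109 and 100 CPM to 64.9, 65.7 and 60.2 CPM. The treated ish2 libraries were the lowest of the 12, with a log2 fold change of -0.71 (SE 0.039, adjusted p = 8.07e-16), against 0.22 (SE 0.036, adjusted p = 3.08e-06) in ish. NDUFA10, an accessory subunit (chr2:239892450-240025402), moved further apart. Its level was 147, 149 and 149 CPM without Dox and 247, 247 and 250 CPM with Dox in ish, then 139, 139 and 139 CPM and 93.8, 91.2 and 90.6 CPM in ish2. No pair of these groups within a construct overlapped, and the effects differed by -1.34 (SE 0.037, adjusted p = 3.46e-27). NDUFB7 showed the same order, with log2 fold changes of 0.41 in ish and -0.52 in ish2. The 4 complex I genes that fell in ish were NDUFS1, NDUFA7, NDUFA13 and NDUFB8, with log2 fold changes of -0.13, -0.22, -0.30 and -0.20. NDUFA7 rose in ish2 by 0.31, as did NDUFC1 by 0.35.

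**Figure D3:**
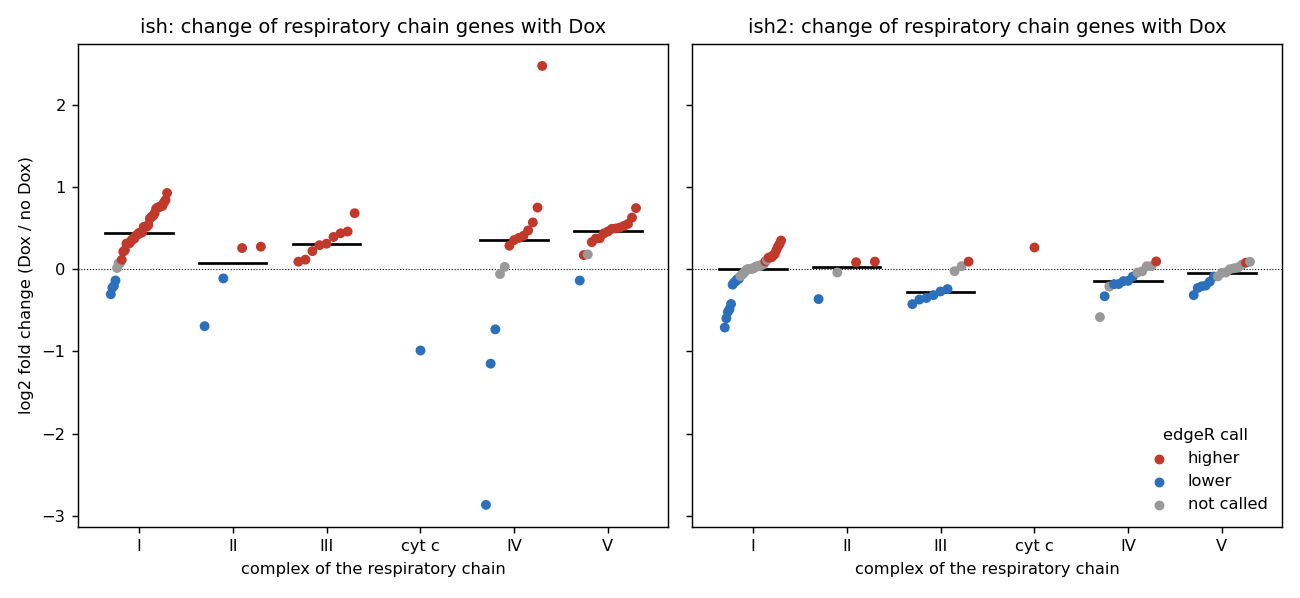
Log2 fold change (Dox over no Dox) of each tested gene by complex, in ish and in ish2, with points coloured by the edgeR call. The 3 tested related genes are left out. In ish 30 of 37 complex I genes and all 9 complex III genes lie above zero as called rises, and in ish2 the genes lie closer to zero on both sides.

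Complex II, succinate dehydrogenase, has its 4 subunits encoded in the nucleus, and they did not move together. SDHA, the flavoprotein, rose in ish by a log2 fold change of 0.28 (adjusted p = 1.22e-10) and fell in ish2 by 0.36 (adjusted p = 1.76e-12). SDHB, the iron-sulfur subunit (chr1:17018722-17054170), stood at 107, 104 and 104 CPM without Dox and 64.5, 64.5 and 65.98 CPM with Dox in ish. In ish2 it stood at 112, 115 and 119 CPM and 116, 111 and 110 CPM. The treated ish libraries were the lowest of the 12, with a log2 fold change of -0.69 (SE 0.032, adjusted p = 9.00e-21), while in ish2 it was -0.037 (adjusted p = 0.296) and the groups overlapped. The membrane anchors SDHC and SDHD changed by less. SDHC rose by 0.26 in ish and 0.088 in ish2, and SDHD fell by 0.11 in ish and rose by 0.096 in ish2. The ish2 rises of SDHC and SDHD (adjusted p = 0.0177 and 0.0146) were lost when single ish2 libraries were left out, for SDHC without Dox replicate 1 or 3 or no-Dox replicate 2 or 3 and for SDHD without Dox replicate 1 or 2 or no-Dox replicate 2 (adjusted p up to 0.216 and 0.197).

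Complex III, the cytochrome bc1 complex, rose in ish in all 9 of its genes (median log2 fold change 0.31). In ish2 6 fell, 1 rose and 2 did not pass (median -0.27), and the effects differed for 8 of the 9. The summed level went from 1279 ± 8.96 to 1593 ± 21.2 CPM in ish and from 1309 ± 36.3 to 1131 ± 17.5 CPM in ish2 (SD, n = 3).

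UQCRC1, a core protein that holds the complex's matrix part (chr3:48599002-48610976), stood at 179, 175 and 182 CPM without Dox and 248, 247 and 243 CPM with Dox in ish. In ish2 it went from 178, 180 and 191 CPM to 137, 138 and 135 CPM. Neither pair of groups overlapped, with log2 fold changes of 0.46 (SE 0.028, adjusted p = 1.82e-17) and -0.42 (SE 0.029, adjusted p = 2.97e-15). CYC1, the heme protein that hands electrons to cytochrome c, changed by 0.31 in ish and -0.31 in ish2, and UQCRQ by 0.44 and -0.37. UQCR10 had the largest rise of the complex in ish at 0.69. Its rise of 0.096 in ish2 (adjusted p = 0.0161) was lost without ish2 Dox replicate 1 or 2 or no-Dox replicate 1 or 2 (adjusted p up to 0.310). UQCR11, whose promoter stretch is printed above, rose in ish by 0.30 and was at -0.021 in ish2, not called.

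Cytochrome c, encoded by CYCS (chr7:25120091-25125361), fell in ish and rose in ish2. It carries electrons from complex III to complex IV and, when released from mitochondria, takes part in apoptosis. Its level was 123, 121 and 125 CPM without Dox and 61.7, 59.5 and 65.7 CPM with Dox in ish. In ish2 it was 124, 128 and 138 CPM without Dox and 163, 155 and 154 CPM with Dox. The 3 treated ish libraries were the lowest of the 12 and the 3 treated ish2 libraries the highest. The log2 fold change was -0.98 (SE 0.037, adjusted p = 5.08e-21) in ish and 0.28 (SE 0.034, adjusted p = 2.58e-08) in ish2, and the effects differed by 1.26 (SE 0.051, adjusted p = 4.06e-20). CYCS, SDHB and SDHD all hold the NRF1 motif in the stretches printed above and fell in ish, whereas NDUFB4 holds it and rose by 0.77. SDHB and SDHD also hold the ETS core in their windows, outside the printed stretches. Of 15 tested genes with the NRF1 motif, 11 rose and 4 fell in ish, and of 52 with a window but no such match 42 rose and 6 fell. In ish2 3 rose and 4 fell with it, and 10 rose and 21 fell without it. Of 19 tested genes with the ETS core, 13 rose and 6 fell in ish, and of 48 without it 40 rose and 4 fell. In ish2 1 rose and 9 fell with the core, and 12 rose and 16 fell without it. These splits were not tested.

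**Figure D4:**
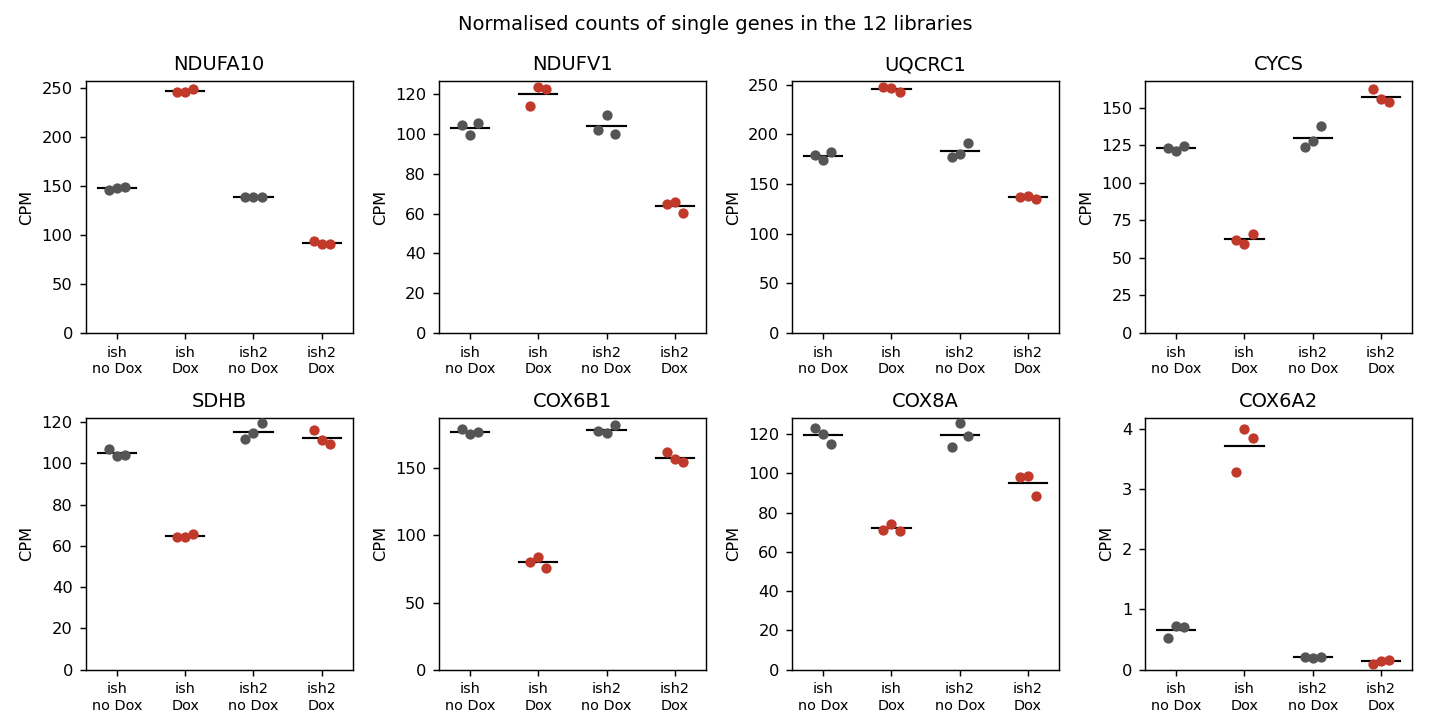
CPM of NDUFA10, NDUFV1, UQCRC1, CYCS, SDHB, COX6B1, COX8A and COX6A2 in the 12 libraries, with points for libraries and a line at each group mean, on axes starting at 0. CYCS, SDHB and COX6B1 are lowest with Dox in ish, NDUFA10 and COX6A2 are highest there, and NDUFV1 is lowest with Dox in ish2.

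Complex IV, cytochrome c oxidase, was split within itself. Of 17 measured genes 13 were tested, and in ish 8 rose, 3 fell and 2 did not pass, while in ish2 1 rose, 6 fell and 6 did not pass. COX7B and COX5A rose in ish by log2 fold changes of 0.76 and 0.57. COX5A and COX5B fell in ish2, by 0.14 and 0.18. COX4I1, the widely expressed form of subunit IV, rose by 0.36 in ish and fell by 0.14 in ish2. COX6C and NDUFA4 passed in neither construct. COX7A2 rose in both, by 0.41 and 0.098, though the ish2 call was lost without ish2 Dox replicate 2 or no-Dox replicate 1 (adjusted p up to 0.0789).

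COX6B1 and COX8A, the widely expressed forms of 2 small subunits, fell in both constructs. COX6B1 faces the intermembrane space (chr19:35648223-35658861). It stood at 179, 175 and 177 CPM without Dox and 79.9, 84.1 and 75.8 CPM with Dox in ish. In ish2 it went from 178, 176 and 182 CPM to 162, 157 and 155 CPM. Groups did not overlap in either construct, and the log2 fold change was -1.15 (SE 0.031, adjusted p = 7.46e-28) in ish and -0.18 (SE 0.030, adjusted p = 2.35e-06) in ish2. COX8A (chr11:63974607-63976543) went from 123, 120 and 115 CPM to 71.3, 74.1 and 70.5 CPM in ish. In ish2 it went from 113, 126 and 119 CPM to 98.3, 98.8 and 88.6 CPM. These groups did not overlap either, with log2 fold changes of -0.73 (adjusted p = 9.68e-15) and -0.33 (adjusted p = 9.44e-08).

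The tissue-restricted isoforms were low in every group. COX6A2, the heart and skeletal muscle form of subunit VIa (chr16:31427731-31428428), stood at 0.527, 0.734 and 0.714 CPM in ish without Dox and 3.28, 3.99 and 3.85 CPM with Dox. In ish2 it stood at 0.217, 0.188 and 0.217 CPM and at 0.103, 0.148 and 0.160 CPM. The treated ish libraries were highest by far, on 62 reads over the ish group without Dox and 345 with it, against 17 and 12 in ish2. Its log2 fold change was 2.48 (SE 0.17, adjusted p = 2.21e-15) in ish and -0.58 (SE 0.48, adjusted p = 0.333) in ish2. Per kilobase of exon it still reached only 8.42 CPM in ish with Dox, where its widely expressed counterpart COX6A1 was at 151 CPM per kilobase. COX6A1 rose in ish by 0.38 and was at 0.040 in ish2 (adjusted p = 0.318). COX6B2, known from testis, fell in ish from 32 reads to 4 over 3 libraries each (log2 fold change -2.87, SE 0.60, adjusted p = 5.72e-05) and had 25 and 23 reads in ish2. The muscle form COX7A1 had 11 to 19 reads per group, COX8C 10 to 28, COX4I2 at most 1 and COX7B2 none. These genes did not pass the filter on low counts and were not tested.

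Complex V, the ATP synthase, rose in ish in 13 of 15 genes (median 0.46), with 1 fall and 1 not passing. In ish2 6 fell, 1 rose and 8 did not pass (median -0.042). Its sum went from 3322 ± 22.2 to 4092 ± 26.1 CPM in ish and from 3419 ± 73.1 to 3213 ± 35.6 CPM in ish2 (SD, n = 3). All 3 genes of the c ring, the rotor in the membrane, rose in ish and none passed in ish2. ATP5G1 stood out among them at 82.7, 81.5 and 78.9 CPM without Dox and 139, 135 and 134 CPM with Dox in ish (log2 fold change 0.75, SE 0.043, adjusted p = 6.89e-13), with no overlap between the groups. All 4 peripheral stalk genes rose in ish, led by ATP5H at 0.63 and including ATP5O at 0.50, and ATP5F1 and ATP5O fell in ish2.

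In the F1 head, where ATP is made, the alpha subunit gene ATP5A1 and the delta subunit gene ATP5D rose in ish by 0.38 each and fell in ish2 by 0.23 and 0.31. ATP5B, the catalytic beta subunit (chr12:56638175-56646068), fell in both. It went from 1019, 1005 and 1006 CPM to 937, 920 and 904 CPM in ish. In ish2 it went from 1063, 1068 and 1087 CPM to 1019, 1016 and 996 CPM. Groups did not overlap, the falls were 1.10-fold and 1.06-fold, and the difference between the effects, 0.048 (SE 0.032, adjusted p = 0.180), did not pass the test. ATP5E was at 2.49 to 4.22 CPM while its left-out pseudogene ATP5EP2 was at 10.3 to 14.9, so reads of the 2 may be split and ATP5E is uncertain. ATP5J2 rose in ish by 0.56. Its ish2 rise of 0.083 (adjusted p = 0.0449) was lost when any library but ish2 no-Dox replicate 3 was left out (adjusted p up to 0.584).

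Of the 5 genes with a related name, COX7A2L, which helps join complexes III and IV into supercomplexes, rose in both constructs, by 0.13 in ish and 0.39 in ish2 (SE 0.029 each). ATP5SL rose by 0.28 in ish and ATP5S fell there by 0.19, and neither passed in ish2. ATP5L2 and ATP5J2-PTCD1 had at most 2 reads in any group.

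Exons of 21 of the 88 genes overlap another gene on the same strand in GENCODE v29, among them NDUFV1, NDUFA7, NDUFA13, NDUFB8, SDHD, COX8A and COX6B2, and reads in shared exons are uncertain.

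Genes that serve the chain were read from 5 further lists of 111 genes, 108 of them tested, in the same fit. Their counts are to be read against all tested genes, of which 39.1% rose and 39.5% fell in ish and 33.9% rose and 31.1% fell in ish2. The citric acid cycle, which supplies NADH and succinate, mostly rose in ish. There 13 of 14 genes rose and SUCLG2 did not pass (median 0.42), and in ish2 2 rose, 6 fell and 6 did not pass (median -0.074). IDH2, the mitochondrial NADP-dependent isocitrate dehydrogenase, changed from 72.5 ± 2.79 to 204 ± 5.77 CPM in ish and from 69.1 ± 2.34 to 29.8 ± 1.32 CPM in ish2 (SD, n = 3). That was a 2.81-fold rise (adjusted p = 6.83e-31) and a 2.32-fold fall (adjusted p = 4.40e-24).

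Of 50 tested assembly factors, which build the complexes, 28 rose (56.0%) and 10 fell in ish (median 0.18). In ish2 20 rose (40.0%) and 11 fell, with a median of 0.043. NUBPL, which inserts iron-sulfur clusters into complex I, fell by 1.59 in ish and fell by 0.45 in ish2. LYRM7, needed to insert the iron-sulfur protein of complex III, fell by 1.10 in ish and was not called in ish2. COA4 rose by 0.73 in ish and fell by 0.10 in ish2 (adjusted p = 0.0402, edgeR). That fall was lost without ish2 Dox replicate 3 or no-Dox replicate 1 (adjusted p up to 0.0902). ECSIT, a complex I assembly factor, fell by 0.68 in ish2 and was not called in ish, and NDUFAF6 rose in both, by 0.54 and 0.63.

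In coenzyme Q synthesis 5 of 11 genes rose and 5 fell in ish (45.5% each), and 3 rose and 4 fell in ish2 (27.3% and 36.4%), shares near those of all tested genes. The methyltransferases COQ3 and COQ5 fell in ish by 1.44 and 1.17, and COQ2 and COQ9 rose by 0.55 and 0.53. In ish2 COQ3, COQ5 and COQ9 were not called. COQ2 rose there by 0.25, a call lost without ish2 Dox replicate 1. Of 22 import and outer membrane genes, 14 rose and 4 fell in ish (median 0.16) and 10 rose and 5 fell in ish2 (median 0.010). VDAC1, the outer membrane channel, rose in both by 0.60 and 0.22, and the import receptor TOMM20 fell in both by 0.33 and 0.15.

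Regulators of mitochondrial gene expression mostly fell in ish. Of 11 tested, PPARGC1B rose, 8 fell and 2 did not pass (median -0.24), and in ish2 3 rose and 6 fell (median -0.094). The NRF1 gene averaged 26.7 ± 1.36 CPM without Dox and 19.95 ± 0.386 CPM with Dox in ish, and 25.5 ± 1.84 and 20.5 ± 0.830 CPM in ish2 (SD, n = 3). It fell by 0.42 and 0.32 on the log2 scale, and the difference of the effects was 0.10 (adjusted p = 0.234), not past the test. TFAM, which packages mitochondrial DNA, fell by 0.41 in ish and rose by 0.23 in ish2, and POLRMT, the mitochondrial RNA polymerase, fell by 0.48 and 0.095.

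Without Dox the 2 constructs were close in these genes. Of the 82, 21 were higher in ish2 (13.7% of all tested genes), 3 were lower (12.4%) and 58 did not pass, with a median log2 difference of 0.038 against -0.0038; 26.1% of all tested genes were called either way. COX6A2 alone differed by at least 1.5-fold (0.388% of all tested genes were higher and 1.44% lower by that much), at a log2 difference of -1.65 (SE 0.33, adjusted p = 0.000292). The largest of the higher differences was 0.23, for COX7B (adjusted p = 0.00110). Against 1.2-fold none was higher and COX6A2 alone was lower (0.329% and 0.730% of all tested genes).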

How the data were processed

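The authors deposited unnormalized read counts by gene for 12 libraries, stranded and paired-end per the labels' protocols. Among tools, Subread 1.6.3, featureCounts, STAR 2.7.3a and Trim Galore 0.6.4 are listed, with GRCh38 as the build, per the submitters' processing notes. The sources used here do not give the annotation or the counting settings. The special rows of the counts are named as by another tool, HTSeq-count, so which tool made the counts is uncertain. Groups came from the sample titles and column headers, Sh1 being taken as ish. Special rows for unassigned reads, of which those with no feature were 10.8% to 12.8% of all reads in the file, stayed out of the fits.

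Counts were filtered by filterByExpr, scaled by TMM and fitted as 4 group means in edgeR 4.0.16 (glmQLFit, robust, R 4.3.3, limma 3.58.1). The call threshold was an adjusted p of 0.05 (Benjamini-Hochberg over 15206 genes). SE is the absolute log2 fold change over the square root of F. Within groups, the chi-square per degree of freedom was 1.34 to 4.22, so no library repeated another. Positions are from GENCODE v29 (GRCh38), promoters from RefSeq, and lengths are exon unions.

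Named genes are NT5E, complex II, CYC1, CYCS, the complex IV isoform pairs, and per complex and construct up to 3 called rises and 3 falls of largest change with at least 2 CPM in the higher group and no overlap (2 each for the companion lists); others were named for a count of 5 or fewer or after their values were seen (SUCLG2, NDUFB4, UQCR11, ATP5F1, COX7A2L, NDUFS1, NDUFS8). The markers MYOG, MYF5 and KRT18 were named outside this rule. Members and lists were chosen with earlier results of these data known. Alternatives were RLE scaling, library totals, no filter, a non-robust fit, glmTreat at 1.2-fold, a replicate block, own libraries only, DESeq2 1.42.0 and each library left out. The results of a few other genes are not reported here.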

Additional observations from a re-analysis of the deposited data

Results flagged for a closer look

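The genes here were picked from NT5E and the named respiratory chain genes. Their Dox effect differed between the constructs by the edgeR test of the difference itself (adjusted p under 0.05). Many were named for a large Dox change in these same data, so their values do not stand for all members. Over all 82 tested members the difference was lower for 62 and higher for 12 (35.2% and 37.4% of all tested genes). Values are the ish2 effect minus the ish effect on the log2 scale. The effect was lower in ish2 for complex I genes, at -0.81 for NDUFA2, -0.54 for NDUFB2, -0.93 for NDUFV1, -1.34 for NDUFA10 and -0.93 for NDUFB7. In complexes II and III it was -0.64 for SDHA, -0.17 for SDHC, -0.63 for CYC1, -0.59 for UQCR10, -0.89 for UQCRC1, -0.81 for UQCRQ and -0.57 for UQCRC2. In complex IV it was -0.50 for COX4I1, -0.34 for COX6A1, -3.06 for COX6A2, -0.31 for COX7A2, -0.71 for COX7B, -0.72 for COX5A and -0.47 for COX5B, and in complex V -0.69 for ATP5G1, -0.72 for ATP5H, -0.47 for ATP5J2, -0.70 for ATP5D, -0.60 for ATP5A1 and -0.70 for ATP5O. The effect was higher in ish2 by 2.74 for NT5E, 1.26 for CYCS, 0.97 for COX6B1, 2.66 for COX6B2, 0.40 for COX8A, 0.65 for SDHB, 0.20 for SDHD, 0.34 for NDUFA13, 0.53 for NDUFA7, 0.21 for NDUFB8 and 0.34 for NDUFC1. In the lists of genes that serve the chain, the effects differed for 31 of 50 assembly factors, 9 of 11 coenzyme Q genes, 13 of 14 citric acid cycle genes, 20 of 22 import and outer membrane genes and 7 of 11 regulators, where 72.6% of all tested genes differed. The shares of assembly factors and regulators were below that of all genes. COX6A2 and COX6B2 rest on few reads.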

How the results depend on the processing

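The counts of called genes kept within 1.5 times under RLE scaling, no filter, a non-robust spread, DESeq2, each construct fitted alone and the replicate block, and no called change of a named gene reversed. The median over all tested genes, close to 0 throughout, changed sign under RLE and DESeq2, to 0.0041 and 0.0040 in ish, -0.0077 and -0.0079 for the difference of effects and 0.0081 in both for the untreated groups. In ish2 that median changed sign when single ish2 libraries were left out, at lowest -0.0058 without Dox replicate 2. The complex I median in ish2, 0.010, also changed sign with ish2 fitted alone or with single libraries left out. With library totals alone, 6 genes were lower in ish2 than in ish without Dox, against 3. Testing against 1.2-fold (glmTreat) left 5 falls in ish, 2 rises and 9 falls in ish2, 7 higher differences between effects, and 0 higher and 1 lower gene without Dox. With each library left out, rises and falls were 64 to 65 and 11 to 12 in ish, 12 to 20 and 29 to 32 in ish2, 12 to 13 and 61 to 64 between the effects of both constructs, and 16 to 27 and 3 to 4 between the untreated groups. Replicate numbers did not pair the samples (residual correlations -0.0798 to 0.0295, and 3 of 12 libraries best with their own number). The replicate block gave 64 rises and 11 falls in ish, 17 and 30 in ish2, 12 and 62 between the effects, and 19 and 3 between the untreated groups. DESeq2 kept 75 of 76 calls in ish and 42 of 46 in ish2. Depth limits COX6A2, COX6B2 and the 6 untested genes, which had at most 60 reads over 12 libraries.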
